A study of Homo sapiens with 24 samples.

Results

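The genes described here sit just behind another gene on the same strand: each starts 1 to 10000 bp past the end of a same-strand gene that it does not overlap, by the coordinates of the deposited counts (hg38). Both genes of a pair had to reach 0.5 CPM (counts scaled to a library total of 1000000) in 3 libraries. This gave 3650 downstream genes, which is 19.8% of the 18422 genes that reached that level and stems from 60605 genes counted, with 3536 distinct upstream partners. The counts come from poly(A)-selected RNA of SBC-3, an established human small cell lung cancer cell line with the genotype given as WT, taken 72 h after reverse transfection with Lipofectamine RNAiMAX at 10 nM. The 24 libraries form 8 groups of 3. Of the siRNA groups, siCtrl received a control siRNA, SFPQ was targeted by siSFPQ-2 or by siSFPQ-3, and NONO by siNONO-3 or by siNONO-4. The antisense oligonucleotide groups are ASO-Ctrl and the 2 oligonucleotides ASO-NEAT1-1047 and ASO-NEAT1-1473. All groups, controls included, are transfected cells of a single line. Whether replicates are separate cultures is not stated in the labels, and the p-values then reflect only the spread of these libraries, which may be technical.

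As background, RNA polymerase II does not stop at the end of a gene. The new transcript is cut a short way past a poly(A) signal, most often the hexamer AATAAA or its variant ATTAAA, by the cleavage and polyadenylation complex, and the polymerase is then dislodged with the help of the exonuclease XRN2. When cutting or termination fails, transcription can run into the next gene on the same strand, which is called readthrough. SFPQ and NONO are related RNA-binding proteins of the nucleus, and NEAT1 is the long noncoding RNA on which paraspeckles, the nuclear bodies that hold both proteins, assemble. Under readthrough a downstream gene would be read together with its partner, so the question put to the data was how the downstream gene and its partner moved, separately and as a ratio. Counts per gene do not tell reads of a transcript that runs in from upstream from reads of the gene's own transcript.

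The distance between the genes had a median of 3697.5 bp and ran from 2 to 9992 bp. It was at most 1000 bp for 606 downstream genes, over 1000 to 3000 bp for 937 and over 3000 bp for 2107. Both genes were protein-coding in 2321 pairs, and 768 downstream genes were long noncoding RNAs and 183 pseudogenes. Another annotated gene, on either strand, overlapped the pair or its gap in all but 431 pairs. In 420 a same-strand gene reached across the whole gap and into both genes. Since the strand setting of the counting is not given in the sources used here, reads of such overlapping and antisense genes cannot be told apart. Just inside the distance limit lay CCDC180 (9990 bp behind SUGT1P4-STRA6LP) and CSRNP2 (9992 bp behind TFCP2), with changes of the log2 ratio of 0.88 and 0.95 after SFPQ knockdown. Just outside it lay RRN3 and ENSG00000259940, both at 10001 bp, with 0.48 and 2.57.

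The last 30 bases of an upstream partner show whether 1 of these hexamers stands near its annotated end. They are printed for pairs that the results below turn on, 5′ to 3′, from GENCODE v29 transcripts (hg38) whose end is the end of the gene in the deposited files, with AATAAA or ATTAAA in capitals.
TDRD7 (chr9:97496096-97496125, plus strand, 5055 bp before TMOD1): attagAATAAAaatgtttatcaatataaaa
RAB3IP (chr12:69823175-69823204, plus strand, 2023 bp before MYRFL): aAATAAAaaaaagacccacccactgtttaa
EHBP1 (chr2:63046458-63046487, plus strand, 3570 bp before OTX1): cAATAAAagcagaaactttcttaccttaaa
CUBN (chr10:16823966-16823995, minus strand, 6503 bp before RSU1): acatAATAAAcattattgaattgtacacaa
ERBB3 (chr12:56103476-56103505, plus strand, 1032 bp before PA2G4): tctgAATAAAaatgccaaagttttttttca
CXCL5 (chr4:73995642-73995671, minus strand, 7452 bp before PPBP): gAATAAAcATTAAAagatttctaaacttca
DGKZ (chr11:46380525-46380554, plus strand, 202 bp before MDK): tgactcagtaaagtggatttttttttcttt
ERBB2 (chr17:39730397-39730426, plus strand, 7501 bp before GRB7): ggccgctcaccagtactccaccacgatgcg
The ends of DGKZ and ERBB2 hold neither hexamer in this window, and the others printed hold at least 1. Of the 2627 partners with such an end, 45.9% held AATAAA, 11.5% held ATTAAA alone and 42.6% neither, against 44.7%, 10.8% and 44.5% of the 13537 expressed genes with one. For partners at most 1000 bp before the next gene, the share with AATAAA was 44.2%. A match is a description of these letters and says nothing of where the RNA was cut.

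The ground in front of the downstream gene is shown for TMOD1, whose pair rose together, and for LCK, whose partner did not rise. The windows hold up to 250 bases before the start of the gene, from RefSeq (GRCh38.p14), on the strand of both genes and with the same hexamers in capitals.
TMOD1 (chr9:97500930-97501179, plus strand): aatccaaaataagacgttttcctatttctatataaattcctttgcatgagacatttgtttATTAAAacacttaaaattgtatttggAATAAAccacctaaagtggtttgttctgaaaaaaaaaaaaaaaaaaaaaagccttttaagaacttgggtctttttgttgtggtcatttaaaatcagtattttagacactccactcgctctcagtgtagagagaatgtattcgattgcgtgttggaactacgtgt
LCK (chr1:32251015-32251238, plus strand): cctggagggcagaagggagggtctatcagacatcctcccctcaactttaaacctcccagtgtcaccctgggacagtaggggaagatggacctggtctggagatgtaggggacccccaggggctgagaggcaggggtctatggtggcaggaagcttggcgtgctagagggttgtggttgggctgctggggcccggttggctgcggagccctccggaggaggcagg
The TMOD1 window holds 1 copy of each hexamer on the sense strand and is 30.4% G and C. The LCK window holds none on either strand and is 63.4% G and C. Windows of the downstream genes, 3049 of them from 2265 matched symbols, held a hexamer in 8.04% of cases, against 13.7% of all 35116 RefSeq windows. The sets are unlike, as the downstream genes are all expressed here and the RefSeq windows were taken whether expressed or not. TATAAA, which is neither of these hexamers, was also less frequent, in 3.90% against 6.80%. The difference is thus not shown to be a trait of downstream genes, and its source was not tested.

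As a check of the labels, SFPQ RNA stood at 1223 ± 40.2 CPM (SD, n = 3) in siCtrl and at 208 ± 47.3 and 223 ± 27.3 in siSFPQ-2 and siSFPQ-3. NONO RNA stood at 399 ± 14.9 in siCtrl and at 69.2 ± 9.30 and 70.1 ± 5.06 in siNONO-3 and siNONO-4. NEAT1 RNA was not lower in the libraries labelled ASO-NEAT1 beyond their spread: ASO-Ctrl had 297 ± 85.8 CPM (SD, n = 3), ASO-NEAT1-1047 had 297 ± 47.0 and ASO-NEAT1-1473 had 206 ± 25.5, with an edgeR adjusted p of 1.00. Directions for NEAT1 are therefore those of the labels. Library totals ran from 4243196 counts, in siSFPQ-2, to 14886353. Of 10 neuroendocrine markers 4 reached 1 CPM in a library. ENO2 was at 26.7 CPM and SYP at 17.2 in siCtrl, CHGA was under 0.1, and INSM1 and NCAM1 were at 0. Their summed level was 46.3 to 54.4 CPM in siCtrl and 67.0 to 108 in the siSFPQ libraries, mostly through SYP (65.9 and 37.4 in siSFPQ-2 and siSFPQ-3), while NEUROD1 had 4.62 in siCtrl and 2.40 and 1.36 there. Of 13 markers of other cell types 5 reached 1 CPM. Their sum was 82.1 to 89.4 CPM in siCtrl and 17.4 to 38.4 in siSFPQ, mostly through TP63, while DCN and SCGB1A1 were at 0 in every group. The part of these shifts in the results on SFPQ was not tested.

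After SFPQ knockdown, downstream genes moved in both directions. The effect is the mean of siSFPQ-2 and siSFPQ-3 minus siCtrl, and calls are made by edgeR where p, adjusted by Benjamini-Hochberg over all 15869 genes tested, is under 0.05. Of the 3101 downstream genes tested, 1000 rose and 1082 fell, which is 67.1%, beside 70.4% of all genes tested (34.7% higher and 35.8% lower). Their median log2 change was −0.06, beside −0.02 for all genes. The other 549 downstream genes were too low for the test. A gene that passed the filter through only the group where it was high had to differ, so these shares describe the genes that passed and not all 3650. In the 2234 pairs with both genes at 1 CPM or more in ASO-Ctrl, 625 downstream genes rose (28.0%) and 879 fell (39.3%). Of all genes tested at that level 30.9% rose and 40.1% fell. The near balance of rises and falls among all tested downstream genes thus did not hold there. More downstream genes had a mean of 0.5 CPM or more in siSFPQ-2 (3215) and siSFPQ-3 (3234) than in siCtrl (2997). All expressed genes did likewise, with 16188 and 16097 against 15236.

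The ratio of a downstream gene to its partner was tested within each library, where scaling cancels, with limma on log2 values and adjustment over all 14157 neighbouring pairs of any orientation. It rose in 1048 and fell in 891 of the 3650 pairs, 53.1% together, beside 57.5% of all neighbouring pairs (29.4% higher and 28.1% lower). The median change of the log2 ratio was 0.10, with quartiles at −0.65 and 0.89. Among the 887 pairs whose ratio rose and whose genes were both tested, the downstream gene alone was called in 188, the partner alone in 205, both in opposite directions in 255, both in the same direction in 227 and neither in 12. Pairs in which the partner alone was called were thus about as many as those in which the downstream gene alone was.

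LCK, a kinase of T-cell receptor signalling, stood furthest apart among the risen ratios. It lies at chr1:32251239-32286165, 5842 bp behind EIF3I, a subunit of a translation initiation factor. LCK had 0, 0 and 0.0729 CPM in siCtrl, 8.95, 5.70 and 11.4 in siSFPQ-2 and 16.0, 13.3 and 17.9 in siSFPQ-3. Every siSFPQ library was above every other library of the series, and all 6 siNONO libraries were at 0. In reads, siCtrl had 1 and siSFPQ 593, a depth-adjusted ratio of 445 with a 95% exact interval of 79.5 to 17603 that covers counting error only. LCK, like MSH4, GRB7, CUBN and MYRFL below, was low in siCtrl and was picked for its change. The lack of overlap and the intervals thus describe chosen genes and are no test. Within the siRNA arm LCK reached the 0.5 CPM rule only through siSFPQ. EIF3I moved the other way, from 166, 182 and 171 CPM in siCtrl to 144, 147 and 152 in siSFPQ-2 and 148, 122 and 128 in siSFPQ-3 (log2 change −0.31 ± 0.08 SE, adjusted p = 0.00096 by edgeR). The next gene in the row, HDAC1, a histone deacetylase 5918 bp behind LCK, rose by 0.71 ± 0.06 (edgeR adjusted p = 1.7e-10), from 239 to 260 CPM in siCtrl to 394 to 422 in siSFPQ.

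MSH4, a meiotic protein of the mismatch repair family, rose behind RABGGTB, a subunit of a Rab prenylation enzyme, 1796 bp upstream. MSH4 had 0.268, 0.409 and 0.291 CPM in siCtrl, 12.1, 23.3 and 28.3 in siSFPQ-2 and 14.6, 17.4 and 17.9 in siSFPQ-3, with no overlap. RABGGTB changed by 0.19 ± 0.06 (adjusted p = 0.0087, edgeR) and the log2 ratio by 5.48 ± 0.65 (adjusted p = 3.9e-08, limma). OTX1, a homeobox transcription factor at chr2:63050057-63057836, and its partner EHBP1, an endocytosis adaptor, moved apart. OTX1 had 4.38, 3.58 and 4.30 CPM in siCtrl against 22.8 to 28.2 in the 6 siSFPQ libraries, while EHBP1 had 585, 608 and 529 against 61.1 to 126. Neither gene overlapped between the groups, and the log2 ratio rose by 5.33 ± 0.23 (limma adjusted p = 2.6e-20). TBX2, a T-box repressor 7005 bp behind BCAS3, showed the same arrangement: TBX2 rose by 1.80 and BCAS3 fell by 2.39 on the log2 scale.

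Others with a large rise of the ratio were PLA2G4C, a phospholipase behind the DNA ligase LIG1 (log2 ratio change 4.96 ± 0.36), CUBN, the vitamin B12 uptake receptor cubilin behind TRDMT1 (4.82 ± 0.51), and GRB7, an adaptor of receptor tyrosine kinases behind ERBB2 (4.52 ± 0.45). GRB7 had 0.0894, 0.307 and 0.364 CPM in siCtrl and 2.73 to 5.65 in siSFPQ, while ERBB2 fell by 0.34 on the log2 scale. In all 3 pairs the partner fell. LEPROT, 4716 bp behind DNAJC6, gave 4.74 ± 0.20, but LEPROT and LEPR overlap on the same strand, so their reads are uncertain.

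**Figure D1:**
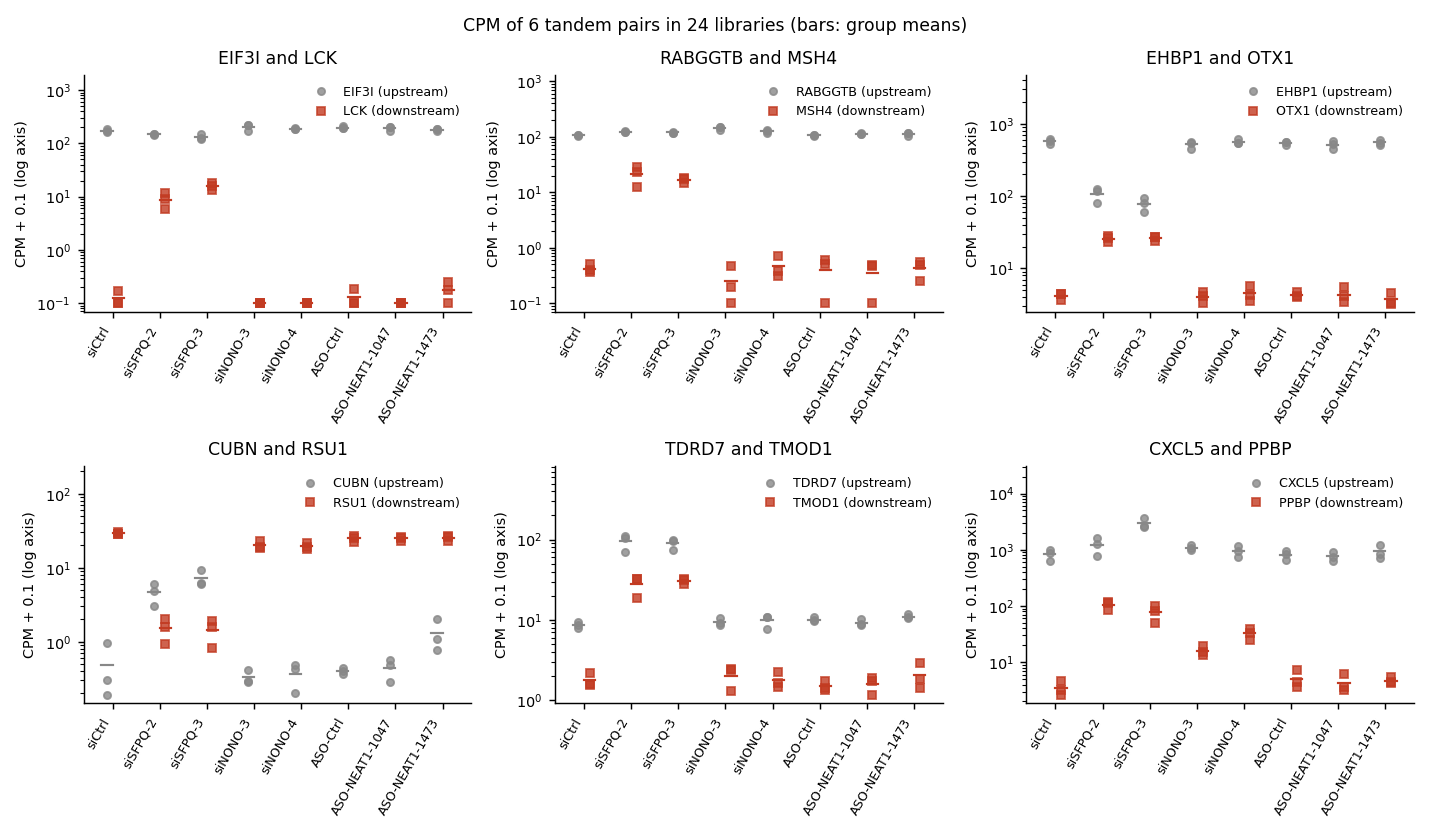
Expression of 6 tandem pairs in the 24 libraries, on a log axis of CPM plus an offset of 0.1; grey circles are the upstream gene, red squares the downstream gene and bars the group means. LCK, MSH4 and OTX1 are high in the 6 siSFPQ libraries while their partners are level or lower, RSU1 is low there while CUBN is high, TDRD7 and TMOD1 are high together, and PPBP is high in both the siSFPQ and the siNONO libraries.

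The largest fall of the ratio was that of RSU1, a Ras suppressor that binds focal adhesion proteins, behind CUBN. RSU1 had 28.2, 30.7 and 28.5 CPM in siCtrl, 1.92, 1.49 and 0.839 in siSFPQ-2 and 1.79, 1.47 and 0.723 in siSFPQ-3. CUBN had 0.0894, 0.204 and 0.874 CPM in siCtrl, 4.73, 2.98 and 5.88 in siSFPQ-2 and 5.85, 6.14 and 9.28 in siSFPQ-3. The ratio fell by 8.56 ± 0.58 on the log2 scale (limma adjusted p = 6.1e-15), and neither gene overlapped between the groups. In the row TRDMT1, CUBN, RSU1 the first gene fell by 0.72, the second rose by 3.73 and the last fell by 4.42 on the log2 scale. PA2G4, a proliferation-associated RNA-binding protein 1032 bp behind the receptor tyrosine kinase ERBB3, fell from 266 to 315 CPM in siCtrl to 115 to 157 in siSFPQ while ERBB3 rose from 2.56 to 5.45 to 38.4 to 70.7. A transcript annotated across both genes, ENSG00000257411, makes their split uncertain.

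The same pattern of a risen partner and a fallen downstream gene held for the other falls that the naming rule picked. They were POGLUT3, a protein glucosyltransferase behind EXPH5 (log2 ratio change −4.94 ± 0.22), COQ2, an enzyme of coenzyme Q synthesis behind the heparanase gene HPSE (−4.65 ± 0.33), SERGEF behind the tryptophan hydroxylase TPH1 (−4.30 ± 0.40) and ACAA2, a mitochondrial thiolase behind the myosin MYO5B (−3.98 ± 0.36). The rule asked for a downstream gene called in the direction of the ratio but asked nothing of the partner.

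Pairs in which both genes rose or both fell were also common. Among the 2831 pairs with both genes tested, both were called in 1385 after SFPQ knockdown, and in 863 of these (62.3%) they moved the same way. TMOD1, a cap of actin filament ends, and TDRD7, an RNA granule protein, rose together. TMOD1 had 2.06, 1.43 and 1.46 CPM in siCtrl, 32.6, 32.2 and 18.4 in siSFPQ-2 and 32.6, 31.1 and 28.2 in siSFPQ-3. TDRD7 had 9.38, 8.38 and 7.87 against 69.7 to 110, and neither gene overlapped. The downstream gene rose more than its partner, by 4.13 against 3.43 on the log2 scale, with a ratio change of 0.68 ± 0.26 (limma adjusted p = 0.025). Without siCtrl replicate 2 or replicate 3 the ratio was no longer called, at 0.62 (adjusted p = 0.085) and 0.65 (adjusted p = 0.089).

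MYRFL rose behind RAB3IP, with 227 reads against 3 (ratio 56.8, 95% exact interval 19.2 to 277), and RAB3IP by 2.25. TUFT1 and the tight junction gene CGN rose by 2.55 and 3.62, and C1orf226 and NOS1AP by 2.11 each, the latter pair with no change of the ratio past the threshold (−0.01 ± 0.29).

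Among the pairs in which both fell, the keratins KRT28, KRT27 and KRT26 form a row on chromosome 17. KRT28 fell by 2.07, KRT27 by 1.96 and KRT26 by 1.88 on the log2 scale, and neither ratio within the row was called. RAC3, a small GTPase 527 bp behind LRRC45, had 14.6 to 17.1 CPM in siCtrl and 2.48 to 5.67 in siSFPQ, and LRRC45 4.91 to 5.10 against 0.630 to 1.41. The chemokine genes CXCL6 and PF4V1 fell by 1.64 and 2.44, and SERPINB9 and its pseudogene SERPINB9P1 by 1.52 and 1.53.

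How far the 2 genes of a pair moved together was then set beside neighbours in other arrangements. The measure is Pearson's r of the log2 changes across pairs, given as a description: the pairs share the same libraries, and chance differences in the siCtrl libraries enter both genes. To keep genes that passed the filter only where they were high from setting the value, it is given for pairs with both genes at 1 CPM or more in ASO-Ctrl, a control outside the comparison; this restriction was added after the data were seen. For SFPQ knockdown r was 0.24 over 2234 tandem pairs up to 10 kb and 0.11 over 4334 tandem pairs over 10 to 100 kb apart. It was 0.06 over 1016 convergent pairs, whose ends lie next to each other, and 0.26 over 1202 divergent pairs, whose starts do. By distance it was 0.36 for 351 tandem pairs up to 1000 bp apart, 0.21 over 1000 to 3000 bp and 0.22 over 3000 bp. Divergent pairs, whose transcripts run away from each other, thus had a value near that of tandem pairs. At gaps up to 1000 bp Pearson's r was 0.36 in tandem and 0.27 in divergent pairs, but Spearman's rho was 0.24 in each. Over all pairs with both genes tested, rho at these gaps was 0.31 in tandem and 0.25 in divergent pairs. For NONO knockdown under the restriction it was 0.27 and 0.23. The differences between these values were not tested. Over all pairs with both genes tested the values were 0.29, 0.17, 0.06 and 0.26, and 0.44 up to 1000 bp.

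The share that moved the same way was also highest in divergent pairs and in the closest tandem pairs. Of tandem pairs with both genes called, 673 of 1104 (61.0%) did so under the restriction and 113 of 169 (66.9%) up to 1000 bp, beside 58.1% of the more distant tandem pairs, 57.3% of convergent and 67.6% of divergent pairs. Tandem pairs with no other gene overlapping them or their gap, in which reads of overlapping genes play no part, had an r of 0.38 over 251 pairs. Where both genes were protein-coding, r was 0.17 over 1756 pairs.

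**Figure D2:**
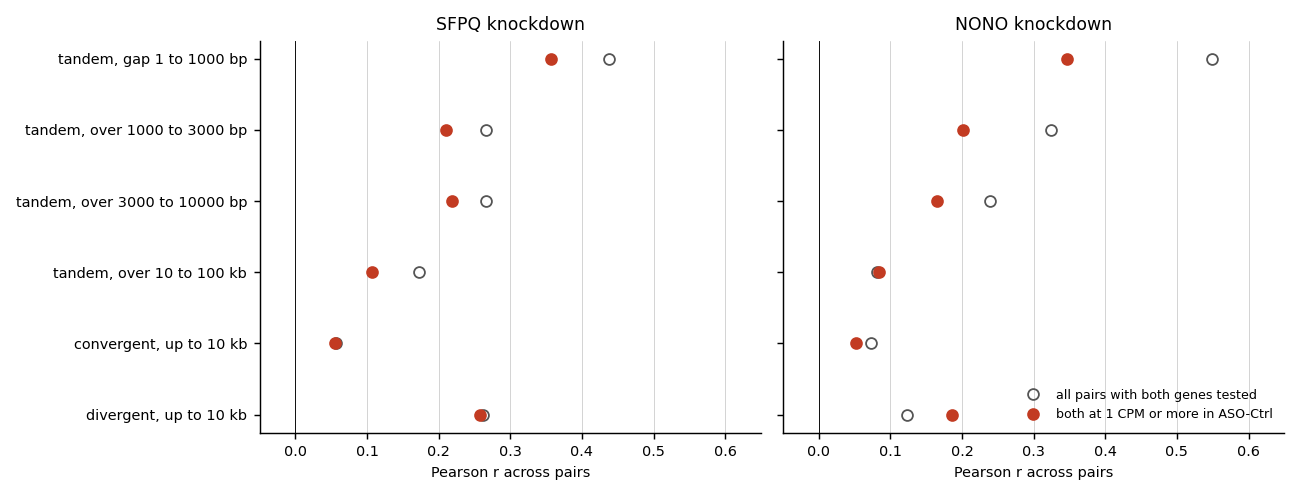
Pearson's r between the log2 changes of the 2 genes of neighbouring pairs, by arrangement and distance, for SFPQ knockdown (left) and NONO knockdown (right); open circles are all pairs with both genes tested and filled circles pairs with both genes at 1 CPM or more in ASO-Ctrl. Filled circles for tandem pairs up to 1000 bp apart stand at 0.36 and 0.35, and those of convergent pairs at 0.06 and 0.05.

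The tandem pairs were also split by the type of the downstream gene. After SFPQ knockdown and under the restriction r was 0.51 over 283 tandem pairs with a long noncoding downstream gene and 0.17 over 1867 with a coding one, and the difference was not tested. The same split was 0.27 and 0.07 at over 10 to 100 kb. In convergent and divergent pairs, here and for NONO below, the split is by the type of the plus-strand gene only. There long noncoding genes had 0.38 in divergent pairs and −0.10 over 56 convergent pairs, and coding genes had 0.06 in convergent pairs. Examples, chosen after their values were seen, are MAP3K14-AS1 behind FMNL1, LINC02035 behind SLC49A4 and ZNNT1 behind ZNF706, in which both genes rose, and ZNF710-AS1 behind IDH2, in which both fell. LINC02035 had 6.61, 7.36 and 6.56 CPM in siCtrl and 17.1 to 35.3 in siSFPQ, and SLC49A4 14.6, 10.8 and 13.6 against 22.3 to 34.7, with no overlap for either. MAP3K14-AS1 rose by 1.86 and its partner FMNL1, 597 bp upstream, by 1.42. DLGAP1-AS1 and DLGAP1-AS2 rose by 4.24 and 5.02, both on the strand opposite DLGAP1, whose reads cannot be told apart from theirs.

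**Figure D3:**
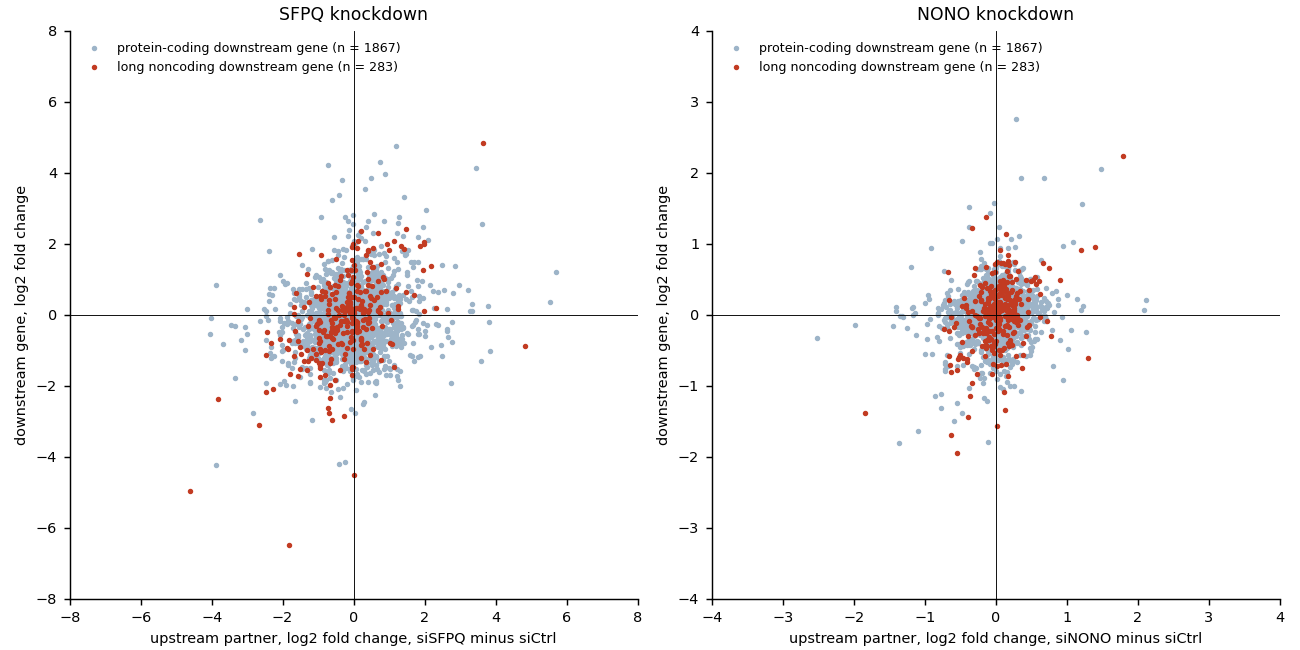
Log2 change of the downstream gene (vertical) against that of its upstream partner (horizontal) for tandem pairs with both genes at 1 CPM or more in ASO-Ctrl, after SFPQ (left) and NONO (right) knockdown; blue points are protein-coding and red points long noncoding downstream genes. The red points lie nearer a rising line than the blue ones, with r of 0.51 against 0.17 for SFPQ and 0.40 against 0.15 for NONO.

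A weak gene behind a strong one is where reads that run in from upstream would weigh most. Levels per length were compared in ASO-Ctrl. Among all tandem pairs with both genes tested, 573 downstream genes had a partner over 10 times as high, and their median change after SFPQ knockdown was 0.61, with 47.1% higher and 17.6% lower. The same class of weak genes had 0.45 in the more distant tandem pairs, 0.49 in convergent pairs, where the partner faces the gene, and −0.01 in divergent pairs. In convergent and divergent pairs the gene was always the plus-strand one and the partner the minus-strand one. Weak minus-strand genes of those pairs are therefore not in these values. Of the weak genes at 1 CPM or more in ASO-Ctrl, 341 in tandem pairs had a median of 0.04, with 34.6% higher and 28.4% lower, and those of the other arrangements −0.03, 0.23 and −0.15. Thus the high median of weak downstream genes did not hold for those already at 1 CPM, and it was not seen in tandem pairs alone. Among the weak genes at 1 CPM or more, those up to 1000 bp behind their partner had a median of 0.45, with 24 of 58 higher and 8 lower, beside 30.9% higher and 40.1% lower among all genes at 1 CPM or more there.

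**Figure D4:**
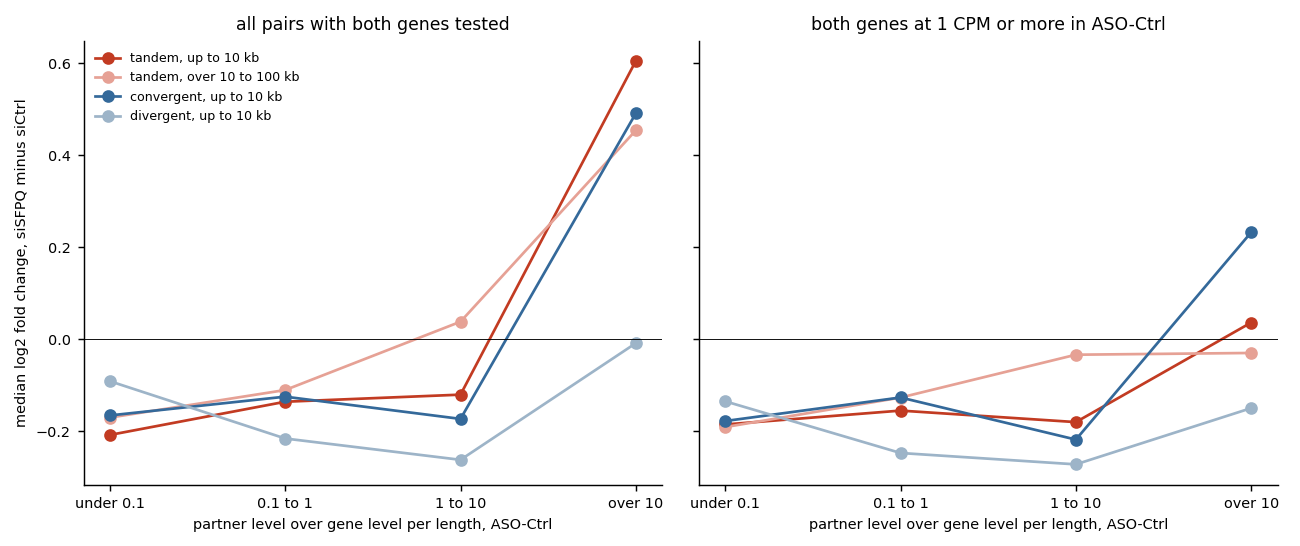
Median log2 change of a gene after SFPQ knockdown by how high its neighbour stands relative to it per length in ASO-Ctrl, for 4 arrangements of neighbouring genes; the left panel holds all pairs with both genes tested and the right panel pairs with both genes at 1 CPM or more in ASO-Ctrl. On the left the value for neighbours over 10 times as high is 0.61 in tandem and 0.49 in convergent pairs, and on the right 0.04 and 0.23. In convergent and divergent pairs the gene is the plus-strand one and the neighbour the minus-strand one.

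Some readthrough transcripts carry names of their own, as loci annotated with the joined symbols of 2 genes. The list was made after the files were seen. Of 136 such loci 66 had a read and 15 were tested, 6 of them joining a pair of the kind described here. After SFPQ knockdown 3 of the 15 rose and 2 fell, with a median change of 0.14, beside 70.4% of all genes called. The loci were weak, with siCtrl means of 0.65 to 8.28 CPM, mostly about 2 CPM or less. Recovery by the test was not measured for such weak genes, so the lower share called does not show a lack of change. CFAP298-TCP10L had 0.268, 0.920 and 0.947 CPM in siCtrl and 1.08 to 2.41 in siSFPQ (log2 change 1.35 ± 0.37, edgeR adjusted p = 0.0021). CFAP298 itself had a log2 change of −0.21 (edgeR adjusted p = 0.13). The means of CFAP298-TCP10L were 2.06 and 1.65 CPM in siSFPQ-2 and siSFPQ-3 and 0.39 to 1.04 in the other groups. It may thus have passed the expression filter only where it was high, and its values are a description and no test. P2RX5-TAX1BP3 rose by 1.05 ± 0.37 (edgeR adjusted p = 0.013), with overlapping groups. With siSFPQ-2 alone P2RX5-TAX1BP3 was not called (log2 change 0.94, edgeR adjusted p = 0.060). Of the genes it joins, P2RX5 fell by 1.11 and TAX1BP3 had a log2 change of 0.43 (edgeR adjusted p = 0.18). DUS4L-BCAP29 rose by 0.63 ± 0.17 together with DUS4L (0.72) and BCAP29 (0.85). RTEL1-TNFRSF6B fell by 2.21 ± 0.51 beside RTEL1, which fell by 2.12, and TIMM23B-AGAP6 fell by 1.17 ± 0.42 with overlapping groups. With siSFPQ-3 alone TIMM23B-AGAP6 was not called (log2 change −0.45, edgeR adjusted p = 0.38). These loci share exons with the genes they join, so their counts depend on how shared reads were assigned, which is not given in the sources used here.

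**Figure D5:**
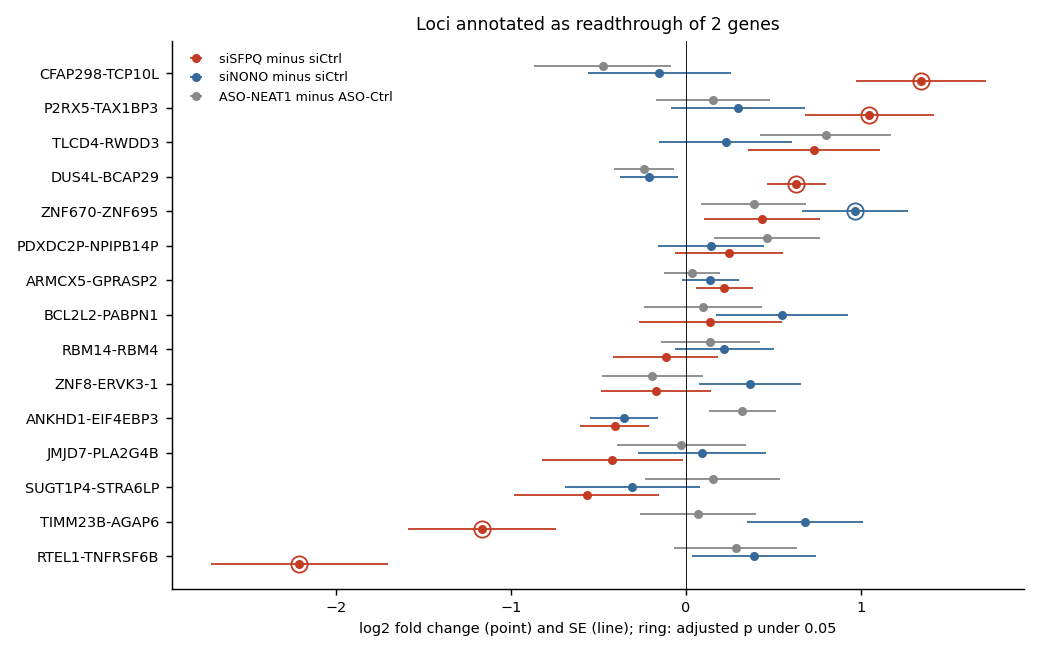
Log2 change (point) and SE (line) of the 15 tested loci named as readthrough of 2 genes, for siSFPQ minus siCtrl (red), siNONO minus siCtrl (blue) and the libraries labelled ASO-NEAT1 minus ASO-Ctrl (grey); rings mark an edgeR adjusted p under 0.05. For SFPQ 3 loci on the right and 2 on the left carry a ring, for NONO 1 locus, ZNF670-ZNF695, and for NEAT1 none.

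The closest pairs in which both genes were well expressed showed no common direction. SUMF2, 13 bp behind the chaperonin subunit CCT6A, fell by 0.26 while CCT6A had a log2 change of 0.14 ± 0.08 (edgeR adjusted p = 0.14). RPS13, a ribosomal protein gene 15 bp behind the lipid kinase PIK3C2A, had 299 to 304 CPM in siCtrl and 279 to 378 in siSFPQ while PIK3C2A rose by 0.48. EXOSC6, a subunit of the RNA exosome, had 63.8, 60.2 and 62.7 CPM in siCtrl and 54.8 to 69.1 in siSFPQ, and its partner AARS1, the alanyl-tRNA synthetase, fell from 140, 158 and 148 to 68.7 to 97.6. The groups overlapped for EXOSC6 and not for AARS1. The 42 bases between them hold neither hexamer:
AARS1 to EXOSC6 (chr16:70251941-70251982, minus strand): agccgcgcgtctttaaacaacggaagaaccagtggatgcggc
HELLPAR, a long noncoding RNA 65 bp behind PARPBP, had 33.7, 37.6 and 47.7 CPM in siCtrl and 43.3 to 77.2 in siSFPQ, and PARPBP 75.5 to 108 against 18.5 to 38.2. HELLPAR rose by 0.61 and PARPBP fell by 1.61 on the log2 scale, and the groups overlapped for HELLPAR only.

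NONO knockdown moved fewer downstream genes. Of the 3101 tested 216 rose and 213 fell, 13.8%, beside 17.4% of all genes tested (7.47% higher and 9.96% lower), and the ratio rose in 184 and fell in 170 of 3650 pairs, 9.70%, beside 11.2% of all neighbouring pairs (5.62% higher and 5.56% lower). Shares of all genes with a library left out are not given here. The NONO count rests in part on single libraries: without siCtrl replicate 1 the share of downstream genes called was 8.10%, and without siCtrl replicate 2 it was 9.05%. With siNONO-4 alone it was 8.80%, beside 11% of all genes, and 5.37% of ratios were called, beside 6.35% of all neighbouring pairs. A replicate block gave higher shares, printed with the other processing settings below, and the counts that follow are without it. Of the 175 pairs with both genes tested whose ratio rose, the downstream gene alone was called in 64, the partner alone in 63 and both in the same direction in 5. Of 84 tandem pairs with both genes called, 56 (66.7%) moved the same way, and so did all 12 up to 1000 bp apart. Divergent pairs did so in 28 of 38 (73.7%), and in 24 of 29 up to 1000 bp apart. Convergent pairs did so in 16 of 26. With both genes at 1 CPM or more in ASO-Ctrl the tandem count was 42 of 69 (60.9%), and 7 of 7 up to 1000 bp. Under this restriction the share was 55.3% in the more distant tandem pairs, 60% in convergent and 74.3% in divergent pairs. Under that restriction r was 0.20 for tandem pairs up to 10 kb, 0.35 up to 1000 bp, 0.08 for the more distant tandem pairs, 0.05 for convergent and 0.19 for divergent pairs. In tandem pairs r was 0.40 for long noncoding downstream genes and 0.15 for coding ones, and in convergent pairs it was 0.45 over 56 long noncoding genes and 0.03 for coding ones.

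PPBP, a platelet chemokine gene at chr4:73986439-73988190, had the largest rise of the ratio after NONO knockdown. It had 3.04, 4.60 and 2.55 CPM in siCtrl, 13.2, 19.3 and 15.0 in siNONO-3 and 24.6, 32.8 and 39.5 in siNONO-4. Its partner CXCL5, another chemokine gene 7452 bp upstream, had 643 to 1007 CPM in siCtrl and 752 to 1203 in siNONO, with overlapping groups (log2 change 0.28 ± 0.23, edgeR adjusted p = 0.45). The log2 ratio rose by 2.46 ± 0.45 (limma adjusted p = 0.0013), and after SFPQ knockdown by 3.57 ± 0.44. CDC42BPG, a kinase behind EHD1, gave 1.95 ± 0.33, PSTPIP2 behind the ATP synthase subunit ATP5F1A 1.59 ± 0.14, and KRT27 behind KRT28 1.59 ± 0.21, where KRT27 rose by 1.23 and KRT28 had a log2 change of −0.38 (adjusted p = 0.063, edgeR).

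Falls of the ratio after NONO knockdown included a pair only 202 bp apart. MDK, the growth factor midkine, had 129, 98.7 and 101 CPM in siCtrl, 33.7 to 50.7 with siNONO-3 and 51.1 to 82.7 with siNONO-4, and DGKZ, a diacylglycerol kinase, 14.5 to 20.3 against 12.7 to 22.4. The groups overlapped for DGKZ and not for MDK, and the log2 ratio fell by 1.17 ± 0.12 (limma adjusted p = 3.1e-08). FTL, the ferritin light chain behind the apoptosis gene BAX, gave −1.26 ± 0.11, with BAX up by 0.91 and FTL down by 0.35. IGDCC3 behind IGDCC4 gave −1.55 ± 0.20, and LEPR behind DNAJC6 −1.12 ± 0.24. The reads of LEPR are uncertain, as it overlaps LEPROT on the same strand. Pairs that moved together were PLK3 and BTBD19 (rises of 1.09 and 1.02), PGPEP1 and the stress cytokine gene GDF15 (0.68 and 1.93), and, falling, CAPN5 and the myosin MYO7A (−0.59 and −1.49), BNIP3L and DPYSL2 (−0.78 and −1.12) and ANKRD18CP and CTSV (−0.72 and −0.79).

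NONO is itself an upstream partner. ITGB1BP2 starts 228 bp behind it, and while NONO RNA fell by 2.52 on the log2 scale, ITGB1BP2 had 1.63 ± 0.53 and 1.48 ± 0.46 CPM (SD, n = 3) in siNONO-3 and siNONO-4, with a log2 change of −0.33 (edgeR adjusted p = 0.57). NEAT1 starts 9249 bp behind FRMD8. After SFPQ knockdown NEAT1 rose by 1.06 ± 0.21 (edgeR adjusted p = 0.00026) and FRMD8 by 0.83, with no change of their ratio past the threshold (0.25 ± 0.20, limma adjusted p = 0.29).

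The 2 knockdowns were compared directly in the same model. Both are measured against the same siCtrl libraries, which cancel in this difference. The ratio was higher after SFPQ than after NONO knockdown in 1176 pairs and lower in 1025, 60.3% of 3650, beside 63% of all neighbouring pairs (32.1% higher and 30.9% lower). The largest differences that the naming rule picked were those of LCK over EIF3I (log2 8.38), MSH4 over RABGGTB (6.39) and OTX1 over EHBP1 (5.24), and, lower after SFPQ knockdown, RSU1 over CUBN (−8.25), HDAC1 over LCK (−7.01) and PA2G4 over ERBB3 (−6.16). For MDK over DGKZ the difference was 1.73 (limma adjusted p = 2.0e-16), with the ratio higher after SFPQ and lower after NONO knockdown.

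In the libraries labelled ASO-NEAT1 no downstream gene and no ratio was called against ASO-Ctrl, by edgeR and limma, beside 0% of all genes and of all neighbouring pairs. At an unadjusted p under 0.05 there were 83 downstream genes (2.68%, beside 2.22% of all genes) and 109 ratios, and DESeq2 called none either. Leaving out ASO-Ctrl replicate 3 gave 0.156% of downstream genes and 0.0548% of ratios. Across 2831 pairs r was 0.07, and 0.18 over 2192 pairs at 1 CPM or more in siCtrl, in a comparison with no called gene. Against siCtrl, ASO-Ctrl differed in 8 downstream genes and 1 ratio, beside 0.454% of all genes and 0.0353% of all neighbouring pairs.

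The genes that end transcripts were looked at as a list of their own, since their levels bear on the same step. Of 23 cleavage and polyadenylation genes tested, 6 rose and 10 fell after SFPQ knockdown, with a median of −0.15. Of all genes tested 34.7% rose and 35.8% fell, 70.4% together, with a median of −0.02. PAPOLG, a poly(A) polymerase, rose by 0.88, FIP1L1 by 0.63 and PCF11, which links cleavage to termination, by 0.36, while CPSF1, the scaffold of the cleavage factor, fell by 1.17, PABPN1 by 0.72 and CPSF4, which binds the poly(A) signal, by 0.71. Of 42 termination and elongation genes 14 went up and 10 down past the threshold (median 0.04), to be read against the same 70.4%. SUPT5H rose by 1.28, PPP1R10 by 1.06 and XRN2 by 0.83, and SUPT4H1, the partner of SUPT5H, fell by 1.25 and the Integrator subunit INTS9 by 1.12. After NONO knockdown SSU72, a phosphatase of the polymerase, rose by 0.68, from 57.1 CPM in siCtrl to 99.1 and 84.4 in siNONO-3 and siNONO-4. The other control, ASO-Ctrl, stood at 85.0 CPM, about as high as siNONO-4. On each list 1 gene rose and 1 fell after NONO knockdown, where 17.4% of all genes were called. None changed in the libraries labelled ASO-NEAT1. Partners with AATAAA near their end and partners with neither hexamer were set side by side for their r with the gene behind them. It was 0.23 over 796 pairs and 0.22 over 645 for SFPQ knockdown, and 0.16 and 0.23 for NONO knockdown, with no test of the difference.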

How the data were processed

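Each library's deposited file gives raw read counts and coordinates for every Ensembl gene, made by the authors with featureCounts per the file headers. Per the submitters' processing notes the tools also were cutadapt 4.2, STAR 2.7.5a, Subread 2.0.3 and DESeq2 1.38.1, on hg38. Not given in the sources used here are how multimapping reads were treated, whether strand was used and which annotation release was counted. Library totals ran from 4243196 to 14886353.

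From these counts genes were tested by the robust quasi-likelihood method of edgeR 4.0.16 (R 4.3.3) in 1 fit of 24 libraries, after TMM scaling and the tool's expression filter by group. A target's effect averages its 2 reagents and subtracts the control of the same arm. CPM are scaled by the TMM factors. Pair ratios were tested with limma 3.58.1 on the difference of the 2 genes' log2 CPM in each library, with voom precision weights and robust moderation. The call threshold is 0.05 after Benjamini-Hochberg adjustment, and "rose" and "fell" are used past it. Unmarked adjusted p-values of genes are edgeR's and those of ratios limma's. On data simulated for the SFPQ comparison, edgeR, run on 12845 genes, recovered 92% of 100 genes changed 2-fold and 100% of 100 changed 4-fold. The pair test, run on 14157 pairs, recovered 84.2% of 95 and 100% of 97. The changed genes and their partners had a mean of 2 CPM or more, and all other genes were left unchanged. Recovery was thus not measured for weaker genes or with most genes changing. Low counts were compared with exact 95% intervals, which cover counting error only, as no molecular identifiers are mentioned.

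Gene names matched for 60463 of 60605 genes and biotypes (GENCODE v29) for 58337. The genes, lists, naming rule and tests were chosen with earlier results of these data known. Named pairs have both genes tested, regular symbols and a mean of at least 5 CPM in a group for each gene. They are the largest called rises and falls of the ratio, called with each siRNA and with the downstream gene called in the same direction, the pairs in which both genes rose or fell most, the largest differences between targets, the smallest gaps with 20 CPM or more in every group, and the pairs at the distance limit. Noncoding examples and readthrough loci were added after values were seen. Same-numbered ASO replicates deviated together in all 9 pairs of libraries (correlations 0.131 to 0.428), so numbers pair there, and a replicate block changed no call. Alternatives were DESeq2 1.42.0, no expression filter, limma-trend, single siRNAs, a replicate block, shorter gaps, pairs with no other gene, and leaving out each library. Some genes and pairs that the naming rule selected are not reported here.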

Additional observations from a re-analysis of the deposited data

How the results depend on the processing

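Leaving out each library in turn gave 61.7 to 66.1% of downstream genes and 48.2 to 52.7% of ratios called for SFPQ, with a median change of −0.083 to 0.0049 and an r of 0.27 to 0.31. For NONO it gave 8.10 to 12.9% and 6.47 to 9.45%, with a median of 0.0043 to 0.055 and an r of 0.26 to 0.31, and for NEAT1 0 to 0.156% and 0 to 0.0548%, with a median of 0.0056 to 0.03 and an r of 0.016 to 0.13. Ratios that differed between SFPQ and NONO were 56.2 to 59.0% of pairs. With pairs free of any other gene the median was 0.057 for SFPQ and 0.054 for NONO, and r 0.50 and 0.57. With gaps of at most 3000 bp r was 0.33 and 0.43, without pairs that share a symbol stem 0.27 for SFPQ, and with both genes at 1 CPM or more in the control of the other arm 0.24 for SFPQ, 0.20 for NONO and 0.18 for NEAT1, with a median of −0.15 for SFPQ. siNONO-4 alone gave 8.80% of downstream genes and 5.37% of ratios called. With a replicate block in the siRNA arm, where same-numbered libraries deviated together (correlation over 0.1) in 20 of 30 pairs, NONO gave 23.3% and 15.1%. Shares of all genes and of all neighbouring pairs under this block, or with a library left out, are not given here. The block changed no NEAT1 call. Without the expression filter 0.0274% of downstream genes were called for NEAT1. The ratio of SNHG12 to TAF12 after SFPQ knockdown was −0.046 (limma adjusted p = 0.841) with siSFPQ-2 alone, against 0.36. Where values moved, the cause was not tested. Of the other settings tried on the named pairs, apart from leaving out libraries, 210 of 220 values kept their direction and side of the threshold, and 527 of 540 did so when a library was left out. Depth limits the weakest downstream genes: 549 were too low to test, and the shallowest library is a siSFPQ-2 library.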

Other observations

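Gene families that stand in rows on the genome make up part of the tandem genes, and their counts after SFPQ knockdown went both ways in most. Of 29 HOX genes, the homeobox genes that pattern the body axis, 25 had another HOX gene as partner. Of the 27 tested 11 rose and 9 fell, with a median log2 change of 0.51. The background for these families is 70.4% of all genes called, 34.7% higher and 35.8% lower, with a median of −0.02. Of 118 zinc finger genes tested 37 rose and 32 fell, with a median of 0.00. Of 16 histone genes 5 rose and 6 fell, and reads of these near-identical genes are uncertain. H3C6 rose by 3.13 beside a log2 change of −0.90 for its partner H2AC8. All 4 keratin genes in the set fell, as did both tested IFIT genes, which are induced by interferon. IFIT1 fell by 3.08 (edgeR adjusted p = 6.5e-20). Of 8 protocadherin genes 3 rose and 2 fell.

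After NONO knockdown 2 of the 27 HOX genes, 1 histone gene, 2 keratin genes and 2 protocadherin genes were called, and 8 zinc finger genes rose and 4 fell, beside 17.4% of all genes called. In the libraries labelled ASO-NEAT1 none was.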
